A study of Mus musculus with 9 samples.

Results

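The comparison set mouse astrocytes given amyloid-beta and acetate against naive astrocytes, in 6 of the 9 libraries in the series. The other 3 libraries, with acetate and no Aβ, also entered the fit, where they helped to estimate the spread and the set term. The 6 were chosen by their labels as Aβ plus acetate 1, 2 and 3 and control 1, 2 and 3. All were primary cultures of cortical astrocytes from WT C57BL/6 pups (P1), and all of them had glucose-free medium for 1 day before harvest. The Aβ plus acetate cultures had received 1 µM amyloid-beta oligomers (Aβ) for 5 days, starting on day 8 in vitro, and 10 mM sodium acetate in the day without glucose. The control cultures had received neither agent. Medium was changed on day 11 and RNA was taken on day 12. Every Aβ plus acetate culture had received both agents, so their separate parts cannot be told apart in this comparison, and a group with Aβ and no acetate was not analysed here. The values of acetate without Aβ are set beside the results below where they bear on them.

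Astrocytes take up acetate and turn it into acetyl-CoA, which enters the tricarboxylic acid (TCA) cycle, lipid synthesis and the acetylation of histones. Aβ is the peptide of the plaques of Alzheimer's disease, and astrocytes bind it, take it up and degrade it. Injured or inflamed astrocytes enter a state called reactivity, in which they raise the filament protein Gfap and secrete protease inhibitors, chemokines and complement. Oxidative stress acts in many cells through the transcription factor NRF2, which switches on enzymes for haem breakdown, glutathione and NADPH.

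RNA was measured in CPM (the reads of a gene scaled to a common library total) after poly(A) selection. From the steps between low values, 1 CPM stood for about 22.2 to 57.0 reads in these libraries, and 13567 to 13723 genes per library reached 1 CPM. The library names fall into 2 naming styles, and the labels do not say what these are. Set 1 holds Aβ plus acetate 1, control 1 and control 2. Set 2 holds Aβ plus acetate 2, Aβ plus acetate 3 and control 3. Across the 9 libraries of the series, Spearman correlations over 14058 genes were 0.992 to 0.997 within a set and 0.905 to 0.935 between sets. The set was therefore a term in the fit, and a difference is given below also within each set, where set 1 rests on Aβ plus acetate 1 alone and set 2 on control 3 alone. The cultures grew in medium with horse and fetal bovine serum. The titles call the samples biological replicates. Differences are fitted differences of log2(CPM + 1), Aβ plus acetate minus control, which understate the change of genes of low CPM.

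With Aβ plus acetate, fitted RNA levels were higher for the antioxidant genes Hmox1 and Srxn1, for the reactivity genes Serpina3n, Lcn2 and Gfap, and for Tgm1, Rabggta and Dhrs1, 3 neighbours on chromosome 14. They were lower for the guidance cues Slit2 and Sema5a, for Rasgrf2, and for most genes of cholesterol synthesis and of the endoplasmic reticulum (ER) chaperone list. No single gene passed the test. In limma with Benjamini-Hochberg adjustment over 14058 genes, 0 genes (0%) passed an adjusted p of 0.05 as higher and 0 (0%) as lower, and the smallest adjusted p was 0.339, for Tgm1. An unadjusted p under 0.05 was reached by 505 genes, 272 of them higher (1.93% of all genes tested) and 233 lower (1.66%). Where no gene differs, a share of about 0.05 would reach it in both directions together, so the count is not above that level. Every direction below is thus a difference of means that did not pass the test, and the replicate spread limits what can be said of each gene.

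The differences were small and varied between the sets. The median log2 difference over all genes was -0.0049, with quartiles of -0.07 and 0.07, and the median SE of a gene was 0.11. Across genes, the difference in set 1 and the difference in set 2 had a Pearson correlation of 0.01 and a Spearman correlation of -0.01 (14058 genes, which are not independent replicates). The sign was the same in both sets for 48.8% of genes. A test of whether the difference itself varied with the set called 0 genes (0%) at an adjusted p of 0.05, with 692 genes (4.92%) at an unadjusted p under 0.05 and a smallest adjusted p of 0.985. A gene is called apart within both sets below when each Aβ plus acetate library lay on the same side of each control library of its own set. Of all genes tested, 9.97% were apart and higher in this sense and 10.7% were apart and lower. With so few libraries, many genes would be apart even where no gene differs. The gene lists below were chosen with earlier results of these data known, and their members are not independent. A list share above that of all genes may thus be partly built in. Where groups are said below not to overlap at all, the share of all genes for which this holds was not counted.

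**Figure D1:**
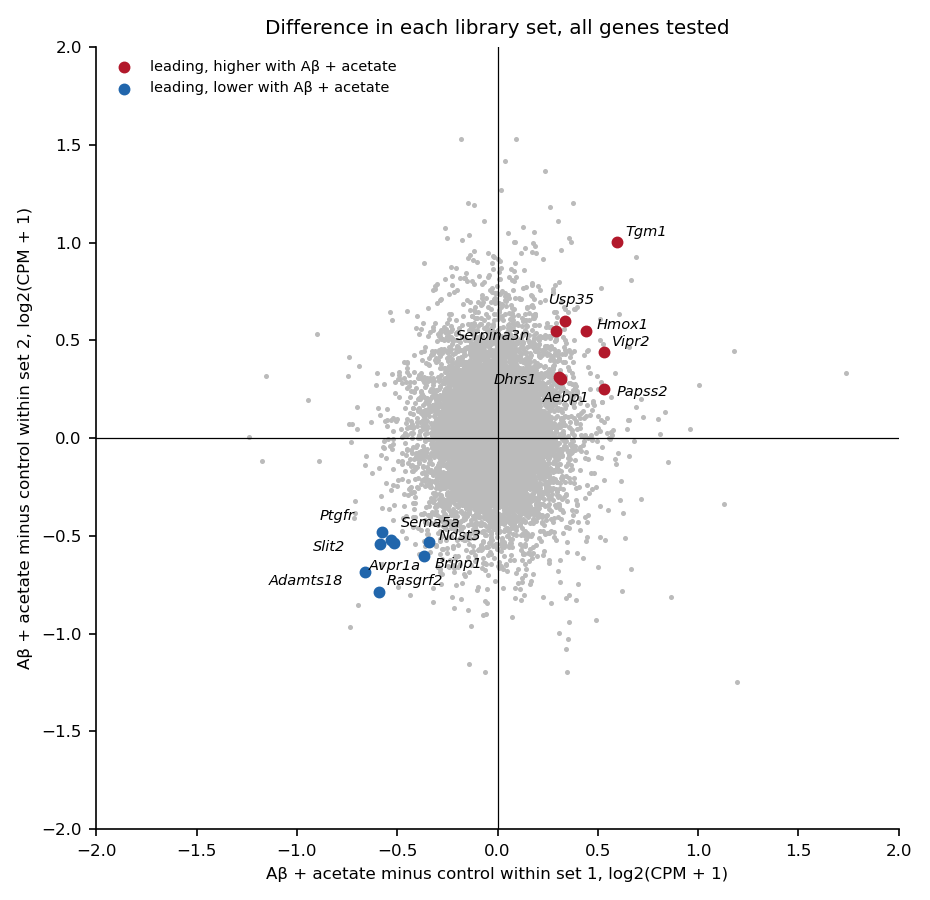
Aβ plus acetate minus control within set 1 (horizontal axis, log2(CPM + 1)) and within set 2 (vertical axis, same scale), each point 1 of 14058 genes. The cloud of all genes shows no slope (Pearson 0.01), and the 16 named genes, picked among those with the same sign in both sets, lie in the upper right (8 higher) and lower left (8 lower) parts of the plot.

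Of the 8 genes with the smallest p among those higher in both sets, several code for secreted or signalling proteins. Tgm1, a transglutaminase that cross-links proteins and is known from the skin barrier, had 5.10, 57.2 and 62.8 CPM in Aβ plus acetate 1, 2 and 3, against 2.72, 3.39 and 29.5 CPM in control 1, 2 and 3. Within each set it was higher in the Aβ plus acetate libraries, although Aβ plus acetate 1 of set 1 lay below control 3 of set 2. Its log2 difference was 0.79 (SE 0.12, 1.73-fold, adjusted p = 0.339), with 0.59 in set 1 and 1.00 in set 2. Tgm1 lies on the minus strand of chromosome 14 from 55700009 to 55713493 on mm10. Acetate alone stood 0.24 above control for Tgm1, and Aβ plus acetate stood 0.55 above acetate.

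The 250 bases before the Tgm1 start are shown because this gene had the smallest p of all and because they hold 2 matches to the motif that STAT transcription factors bind. They come from RefSeq on GRCm38.p6, chr14:55713493-55713742, minus strand, with the matches in capitals.
Tgm1: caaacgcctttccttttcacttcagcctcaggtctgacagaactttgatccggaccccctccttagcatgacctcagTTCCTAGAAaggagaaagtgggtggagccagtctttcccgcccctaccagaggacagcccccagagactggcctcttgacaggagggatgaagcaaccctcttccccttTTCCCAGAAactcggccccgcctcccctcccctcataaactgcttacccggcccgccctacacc
The motif searched was TTCNNNGAA, which reads the same on both strands. The matches began 173 and 64 bases before the start, they do not overlap, and 7.02% of 32851 promoters in the table hold at least 1 such match in 250 bases. A match is a description of the sequence.

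Serpina3n, a secreted inhibitor of serine proteases and a marker of reactive astrocytes, had 128, 295 and 301 CPM in Aβ plus acetate 1, 2 and 3, against 104, 105 and 204 CPM in control 1, 2 and 3. The log2 difference was 0.44 (SE 0.09, adjusted p = 0.999), and acetate alone stood 0.02 from control. Its Serpina3 relatives on chromosome 12 are similar in sequence, so shared reads may have been split among them. Hmox1, which breaks down haem, had 161, 487 and 395 CPM in Aβ plus acetate 1, 2 and 3, against 116, 121 and 300.0 CPM in control 1, 2 and 3 (log2 0.47, SE 0.10, adjusted p = 0.999). Both genes were apart within both sets, while the sets themselves differed more than the groups.

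Vipr2, a receptor for the peptide VIP, had 8.36, 26.4 and 24.9 CPM in Aβ plus acetate 1, 2 and 3, against 5.42, 5.55 and 18.7 CPM in control 1, 2 and 3 (log2 0.50, SE 0.10, adjusted p = 0.999). Acetate alone stood 0.23 above control for this receptor, close to the 0.27 that separated Aβ plus acetate from acetate. Usp35, a deubiquitinase, stood at 0.47 (SE 0.12), with 0.34 in set 1 and 0.60 in set 2. Papss2, which makes the sulfate donor PAPS, stood at 0.37 (SE 0.09), with 0.53 and 0.25 in the sets and 0.23 without Aβ plus acetate 1. Aebp1, a secreted carboxypeptidase-like protein of the matrix, stood at 0.29 (SE 0.08), with 0.31 in each set. Aebp1 overlaps Pold2 on the other strand, and since the counting is not stated to use strand, reads of this pair cannot be told apart. The same limit holds for Tgm1, Vipr2, Sema5a, Slit2 and Avpr1a, each overlapped by an antisense transcript in GENCODE that was not tested here. Usp35, Papss2 and Aebp1 were apart and higher within both sets. In a fit without the set as a term, Tgm1 stood at 1.84, Vipr2 at 1.00, Hmox1 at 0.95, Serpina3n at 0.78, Aebp1 at 0.77 and Papss2 at 0.01, so the sizes given here rest on the set term.

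**Figure D2:**
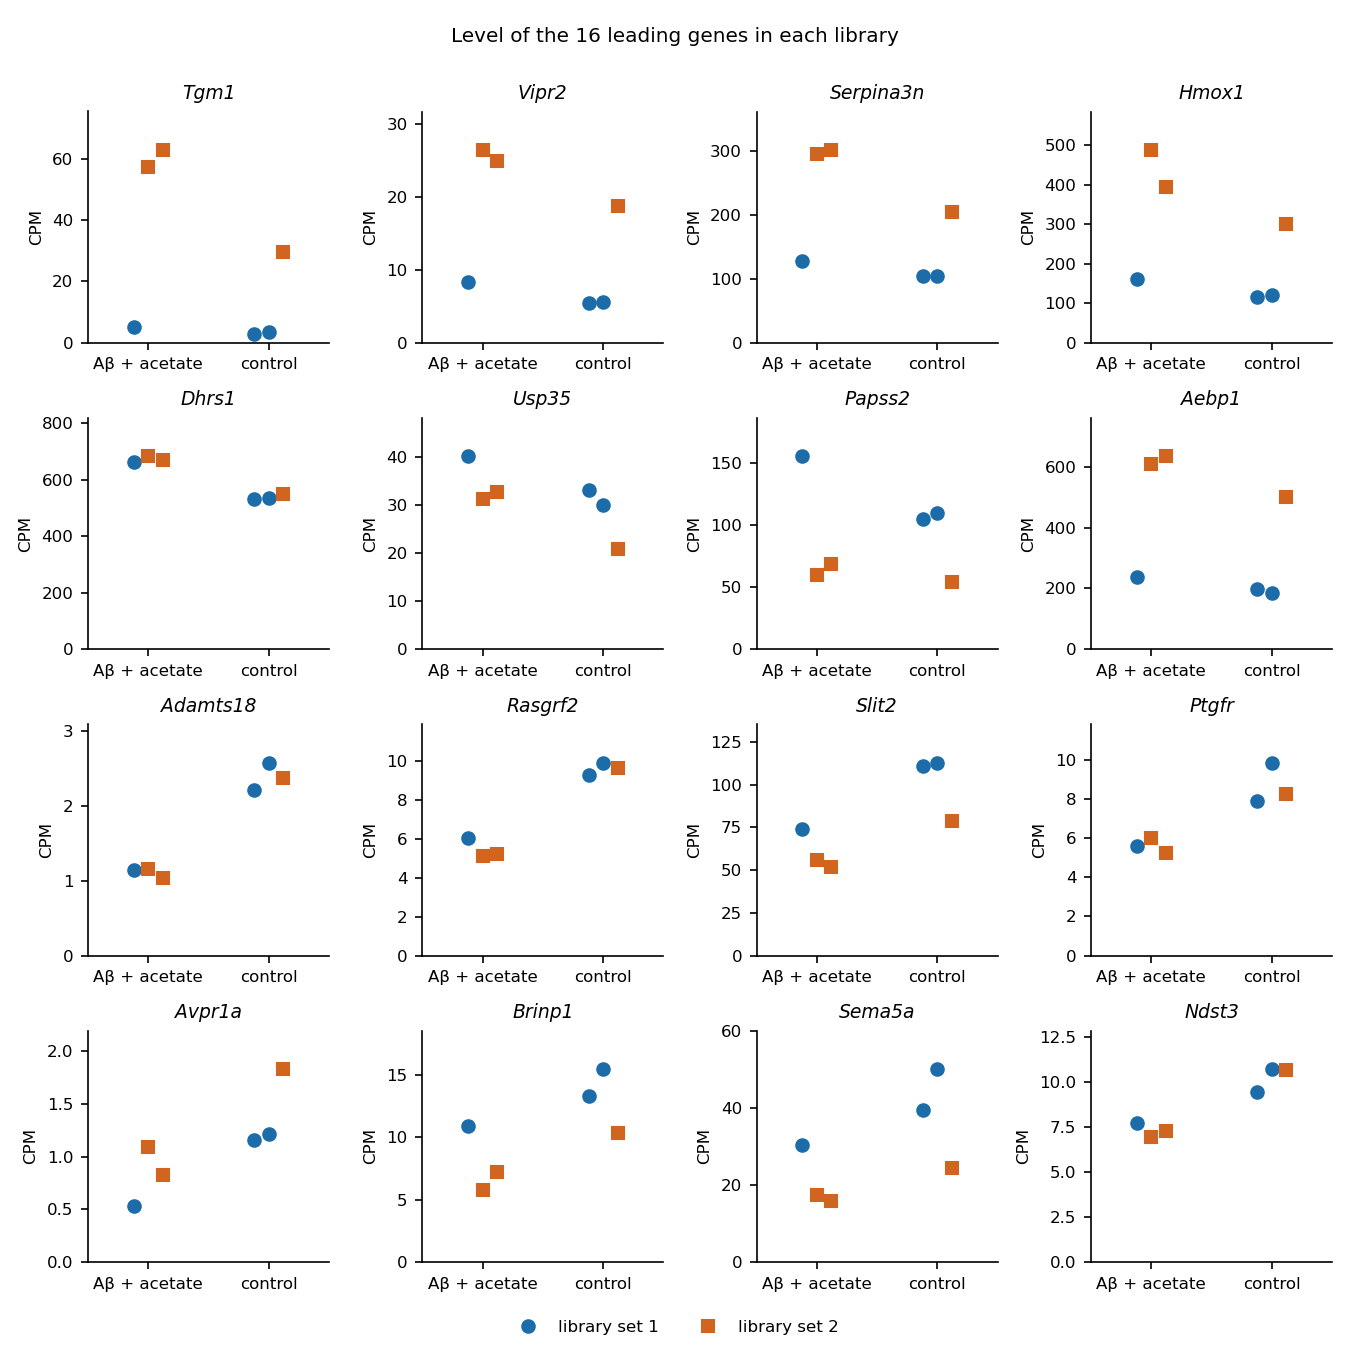
CPM (vertical axis, from 0) of the 16 named leading genes in each Aβ plus acetate library (left) and each control library (right), circles for set 1 and squares for set 2. Dhrs1, Adamts18, Rasgrf2, Slit2, Ptgfr, Avpr1a and Ndst3 show no overlap of the groups, while Tgm1, Hmox1 and Aebp1 differ more by set than by group. The 16 were picked for small p, so a lack of overlap is partly built in.

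Dhrs1, a short-chain dehydrogenase, had similar levels in both sets. It had 663, 682 and 671 CPM in Aβ plus acetate 1, 2 and 3, against 531, 535 and 549.5 CPM in control 1, 2 and 3. The means were 672 ± 9.80 CPM with Aβ plus acetate and 538 ± 9.81 CPM in controls (SD, n = 3 each), and the groups did not overlap. Its log2 difference was 0.30 (SE 0.08, unadjusted p = 0.0023, adjusted p = 0.999), with 0.31 in set 1 and 0.30 in set 2. Acetate alone stood at -0.02 from control, and Aβ plus acetate stood 0.32 above acetate.

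Dhrs1 and Tgm1 are close neighbours, and the genes around them were chosen for mention after their values were seen. Tgm1, Rabggta and Dhrs1 lie in a row on the minus strand of chromosome 14, from 55700009 to 55745685, within 45.7 kb. Rabggta, the alpha subunit of the enzyme that attaches lipid anchors to Rab proteins, had 44.2, 67.1 and 69.2 CPM in Aβ plus acetate 1, 2 and 3, against 37.1, 36.0 and 57.7 CPM in control 1, 2 and 3. Its log2 difference was 0.25 (SE 0.07, adjusted p = 0.999), and it too was apart within both sets.

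The genes on either side of these 3 stood near 0. Tinf2, a protein of the telomere cap, stood at 0.0018 (SE 0.10), and Nop9, which acts in ribosome assembly and lies head to head with Dhrs1 on the plus strand, at 0.0034 (SE 0.07). Cideb, a lipid droplet protein, stood at 0.31 (SE 0.18) with 1.92, 3.22 and 3.46 CPM in Aβ plus acetate 1, 2 and 3, against 1.89, 1.44 and 1.85 CPM in control 1, 2 and 3, and at 0.03 without control 3. Nfatc4, a calcium-regulated transcription factor, stood at 0.75 (SE 0.22), at 0.24 in set 1, 1.37 in set 2 and 0.28 without control 3. Ripk3 and Gmpr2 stood at -0.06 (SE 0.15) and -0.03 (SE 0.09). Cideb overlaps Nop9 on the other strand, so their reads cannot be told apart without strand.

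**Figure D3:**
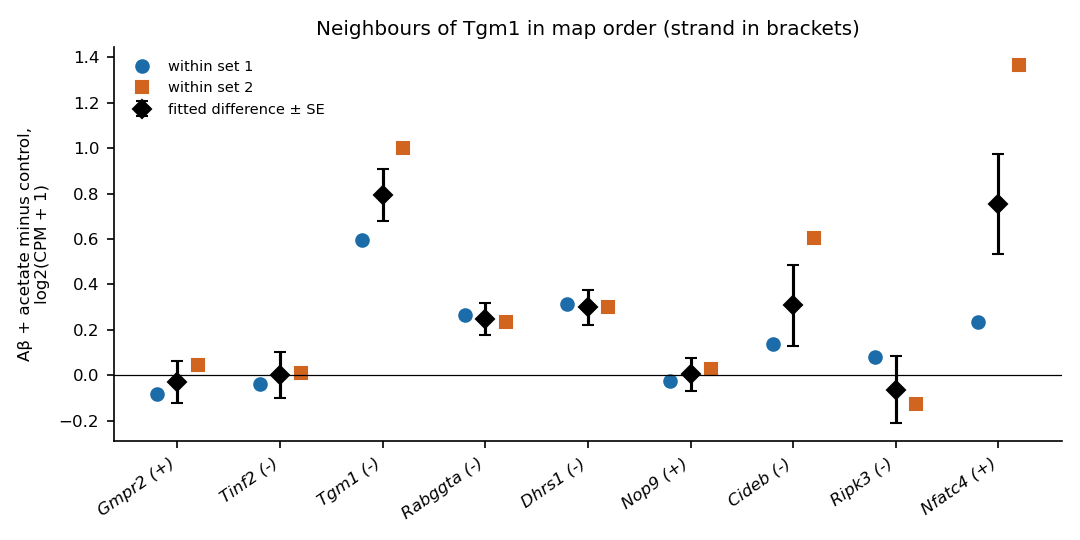
Log2 difference of Aβ plus acetate minus control (vertical axis, log2(CPM + 1)) for 9 neighbouring genes in map order with their strand, as the fitted value with its SE (diamond), within set 1 (circle) and within set 2 (square). Tgm1, Rabggta and Dhrs1 lie above 0 in both sets, and Tinf2 and Nop9 beside them lie near 0.

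In the 250 bases before Rabggta (chr14:55722264-55722513) and before Dhrs1 (chr14:55745685-55745934) the same search found no match to TTCNNNGAA, which says only that these letters are not in those windows.

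Genes lower with Aβ plus acetate included cues for growing axons, receptors and an exchange factor. Rasgrf2, which activates Ras and Rac in response to calcium, had 6.04, 5.15 and 5.21 CPM in Aβ plus acetate 1, 2 and 3, against 9.31, 9.93 and 9.65 CPM in control 1, 2 and 3. The groups did not overlap, and the log2 difference was -0.65 (SE 0.13, adjusted p = 0.999). Slit2, a secreted axon repellent, had 74.1, 55.7 and 51.9 CPM in Aβ plus acetate 1, 2 and 3, against 111, 113 and 78.8 CPM in control 1, 2 and 3. Its log2 difference was -0.50 (SE 0.12, adjusted p = 0.999), with -0.59 in set 1 and -0.54 in set 2, and acetate alone stood at -0.05 from control. The groups of Slit2 did not overlap either.

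Sema5a, a membrane semaphorin that also guides axons, had 30.4, 17.5 and 15.9 CPM in Aβ plus acetate 1, 2 and 3, against 39.4, 50.0 and 24.3 CPM in control 1, 2 and 3 (log2 -0.50, SE 0.13, adjusted p = 0.999). Adamts18, a secreted metalloprotease, had 1.14, 1.15 and 1.03 CPM in Aβ plus acetate 1, 2 and 3, against 2.21, 2.57 and 2.36 CPM in control 1, 2 and 3 (log2 -0.68, SE 0.13, adjusted p = 0.999). The groups of Adamts18 did not overlap, and its difference was nearly the same in set 1 (-0.66) and set 2 (-0.69). At this low level it depends on the pseudocount, with -1.03 for a pseudocount of 0.1 and -0.27 for 5.

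The receptors Ptgfr, for prostaglandin F, and Avpr1a, for vasopressin, stood at -0.54 (SE 0.14) and -0.53 (SE 0.13), and with a pseudocount of 5 at -0.36 and -0.18. Ptgfr had 5.59, 6.01 and 5.25 CPM in Aβ plus acetate 1, 2 and 3, against 7.87, 9.84 and 8.25 CPM in control 1, 2 and 3, with no overlap of the groups. For Ptgfr the larger part lay between acetate and control (-0.38), and Aβ plus acetate stood at -0.16 from acetate. For Avpr1a these were -0.16 and -0.37. Brinp1, a neural protein that restrains the cell cycle, stood at -0.48 (SE 0.12), and Ndst3, which sulfates heparan chains, at -0.43 (SE 0.11). Acetate alone stood at -0.16 from control for Brinp1 and at -0.31 for Ndst3, and Aβ plus acetate stood at -0.32 and -0.11 from acetate. These comparisons share libraries, so their values are only set side by side.

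The reactive astrocyte genes were described by 3 lists. Of 13 genes raised in reactive astrocytes of several kinds of injury (the pan-reactive list), 10 were higher with Aβ plus acetate and 0 passed, with a median of 0.15 (0.08 in set 1 and 0.19 in set 2), against -0.0049 for all genes. Of these, 6 were apart and higher within both sets, or 46.2%, against 9.97% of all genes. Lcn2, a lipocalin that traps iron carriers, had 5.96, 16.1 and 17.5 CPM in Aβ plus acetate 1, 2 and 3, against 4.68, 4.06 and 6.73 CPM in control 1, 2 and 3 (log2 0.79, SE 0.22, adjusted p = 0.999). Gfap, the filament protein of astrocytes, had 4809.5, 5709 and 6543 CPM in Aβ plus acetate 1, 2 and 3, against 4094, 3433 and 5037 CPM in control 1, 2 and 3 (log2 0.32, SE 0.12, adjusted p = 0.999). Lcn2 stood at 0.51 without control 3. Both genes were apart within both sets, though Gfap in Aβ plus acetate 1 lay below control 3.

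Cxcl10, a chemokine for T cells, had 9.10, 84.5 and 80.5 CPM in Aβ plus acetate 1, 2 and 3, against 4.23, 4.15 and 79.8 CPM in control 1, 2 and 3. Its difference of 0.46 (SE 0.18) came mostly from set 1, with 0.96 there, 0.05 in set 2 and 0.06 without Aβ plus acetate 1. Ccl2, a chemokine for monocytes, had 6.57, 12.8 and 11.9 CPM in Aβ plus acetate 1, 2 and 3, against 2.16, 2.53 and 8.78 CPM in control 1, 2 and 3 (log2 0.70, SE 0.26, adjusted p = 0.999), and stood at 0.24 without Aβ plus acetate 1. Of 10 cytokine and chemokine genes tested, 7 were higher and 0 passed, with a median of 0.13 (0.03 in set 1 and 0.26 in set 2) that was 0.04 without control 3. Acetate alone stood at -0.11 from control for Cxcl10 and at -0.22 for Ccl2, and Aβ plus acetate stood 0.57 and 0.93 above acetate.

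The other 2 lists hold genes named A1 (raised by inflammation) and A2 (raised by ischaemia). Of 12 A1 genes, 5 were higher and 0 were apart and higher within both sets, with a median of -0.05 in the fit, 0.04 in set 1 and 0.09 in set 2, and of 0.05 without Aβ plus acetate 2. C3, a complement protein of the A1 list, had 99.1, 1348 and 1365 CPM in Aβ plus acetate 1, 2 and 3, against 104, 72.0 and 1048 CPM in control 1, 2 and 3, so the groups overlapped in set 1 (log2 0.30, SE 0.13, and 0.19 without control 2). Fkbp5, a stress-hormone-responsive chaperone partner, stood at -0.24 (SE 0.11). Of 11 A2 genes, 8 were higher, with a median of 0.09, and 2 were apart and higher. Tgm1 is an A2 gene, and Sphk1, which makes sphingosine 1-phosphate, stood at 0.42 (SE 0.17) with 0.07 in set 1, 0.81 in set 2 and 0.13 without control 3. Without control 3 the A2 median was -0.07. Whether the 3 lists differ from each other was not tested. Of 20 genes of interferon response and antigen processing, 11 were higher, with a median of 0.02 in the fit, -0.03 without Aβ plus acetate 1, 0.11 with 18 of 20 higher without Aβ plus acetate 2, and 0.45 with 20 of 20 higher when the set was left out.

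Most antioxidant genes had a fitted difference above 0. Of 25 genes of the NRF2 list, 23 were higher and 0 passed, against 48.2% higher among all genes. Of these, 11 were apart and higher within both sets (44%, against 9.97% of all genes) and 0 of the list were apart and lower. This list, like the others, was chosen with earlier results of these data known. The median was 0.12, with 0.10 in set 1 and 0.18 in set 2. Without control 3 it was 0.078 with 19 of 25 higher, and without the set as a term 0.12 with 18 of 25 higher. Srxn1, which repairs oxidised peroxiredoxins, had 52.9, 117 and 95.2 CPM in Aβ plus acetate 1, 2 and 3, against 41.2, 43.8 and 82.9 CPM in control 1, 2 and 3 (log2 0.33, SE 0.10, adjusted p = 0.999). The quinone reductase Nqo1 had 15.6, 12.6 and 13.1 CPM in Aβ plus acetate 1, 2 and 3, against 12.7, 13.4 and 9.23 CPM in control 1, 2 and 3 (log2 0.33, SE 0.13, adjusted p = 0.999). Gsta4, which joins glutathione to products of lipid peroxidation, stood at 0.32 (SE 0.10). Each was apart and higher within both sets.

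For the antioxidant list, acetate alone had a median of -0.0075 from control and Aβ plus acetate a median of 0.15 from acetate. Srxn1 stood at -0.17 with acetate alone and Hmox1 at -0.10, and Aβ plus acetate stood 0.50 and 0.57 above acetate for these genes. The members that were lower were Txn1 and Gsr, 2 enzymes that keep thiols reduced, chosen for mention after their values were seen, at -0.08 (SE 0.12) and -0.06 (SE 0.08). The RefSeq table holds 26 promoters of 19 genes of the list. The core of the antioxidant response element, TGACNNNGC, was found on either strand in the 250 bases before the start in 4 of these 26 promoters (15.4%), against 10.2% of all 32851 promoters and 3 of 20 promoters of the cholesterol synthesis genes (15.0%). TGANTCA was found in 4 of the 26 (15.4%), against 6.75% of all promoters and 2 of 20 promoters of the cholesterol synthesis genes (10.0%).

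The Srxn1 promoter is shown because Srxn1 had the smallest p of the list after Hmox1, whose promoter is not shown. It is from RefSeq on GRCm38.p6, chr2:152105274-152105523, plus strand, and it holds 2 copies of the AP-1 element TGANTCA, which is also the start of many antioxidant response elements, 102 and 45 bases before the start, in capitals.
Srxn1: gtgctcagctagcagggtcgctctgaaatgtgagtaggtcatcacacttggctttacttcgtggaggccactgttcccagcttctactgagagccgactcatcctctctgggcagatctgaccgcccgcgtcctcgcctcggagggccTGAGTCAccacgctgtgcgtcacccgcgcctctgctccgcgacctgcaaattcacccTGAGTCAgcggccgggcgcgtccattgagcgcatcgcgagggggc

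**Figure D4:**
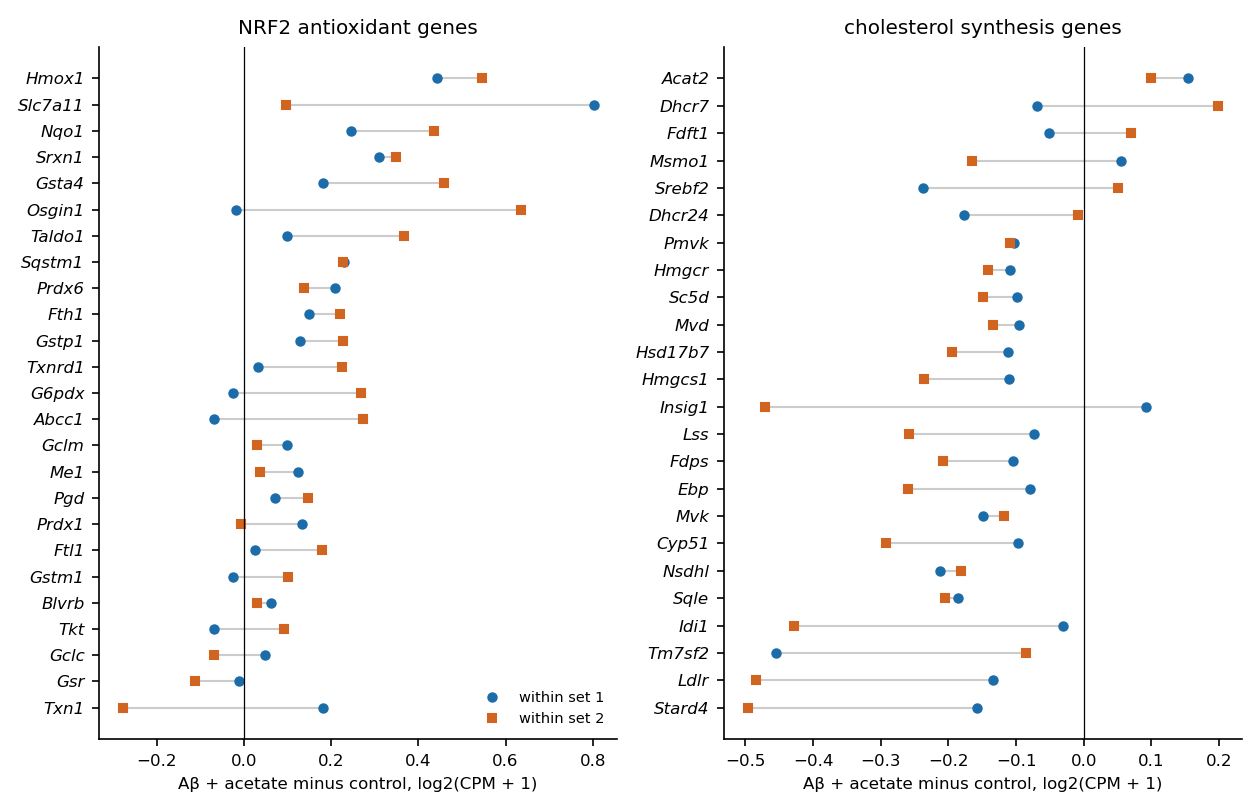
Aβ plus acetate minus control (horizontal axis, log2(CPM + 1)) within set 1 (circles) and within set 2 (squares) for the 25 antioxidant genes (left) and the 24 cholesterol synthesis genes (right). In set 1, 19 of 25 antioxidant genes lie above 0, and in set 2, 21 do, while 21 and 20 of the 24 cholesterol genes lie below 0.

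Metallothioneins, small proteins that bind zinc and copper, had fitted differences above 0, also with acetate alone. Mt1 had 1105, 903 and 1062 CPM in Aβ plus acetate 1, 2 and 3, against 1001, 749.8 and 761 CPM in control 1, 2 and 3 (log2 0.37, SE 0.12, adjusted p = 0.999). All 3 genes, Mt1, Mt2 and Mt3, had a fitted difference above 0 and 0 passed, with Mt2 at 0.19 (SE 0.12) and Mt3 at 0.22 (SE 0.13) overlapping between the groups. Mt2 stood at 0.31 without control 1 and 0.091 without control 2, and Mt3 at 0.36 without control 1 and 0.12 without control 3. The mean of Mt3 was 681 CPM with Aβ plus acetate and 697 CPM in controls, and without the set as a term its difference was 0.0018. Mt1 stood 0.37 above control with acetate alone, and Aβ plus acetate stood at -0.0022 from acetate.

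Genes of cholesterol synthesis and its SREBP2 control were lower. Of 24 tested, 21 were lower and 0 passed, with a median of -0.16 (-0.10 in set 1 and -0.17 in set 2). Of these, 11 were apart and lower within both sets (45.8%, against 10.7% of all genes) and 1 was apart and higher. Sqle, the squalene epoxidase, had 277, 144 and 139.5 CPM in Aβ plus acetate 1, 2 and 3, against 309, 321 and 163 CPM in control 1, 2 and 3 (log2 -0.19, SE 0.07, adjusted p = 0.999). Lss, which closes the sterol rings, had 52.5, 49.1 and 50.4 CPM in Aβ plus acetate 1, 2 and 3, against 56.3, 54.4 and 59.7 CPM in control 1, 2 and 3 (log2 -0.17, SE 0.08, adjusted p = 0.999). The groups of Lss did not overlap, while Sqle differed mainly by set.

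Stard4, which carries cholesterol between membranes, stood at -0.30 (SE 0.11) and Nsdhl, of the later steps, at -0.19 (SE 0.08), and both were apart and lower within both sets. Without control 3, Stard4 stood at -0.13 and Lss at -0.11. Acetate alone had a median of -0.23 from control over these genes, and Aβ plus acetate stood a median of 0.07 above acetate. For Lss these were -0.38 and 0.21. Without control 3 the list median was -0.11. The fit without the set as a term gave -0.51, with 24 of 24 lower.

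Genes that burn fatty acids were higher by small amounts. Of 28 genes of fatty acid oxidation and ketone use, 26 were higher, 10 of them apart and higher within both sets (35.7%) and 0 apart and lower, with a median of 0.07 (0.05 in set 1 and 0.09 in set 2) and 0 passing. Ppargc1b, a coactivator for mitochondrial genes, had 2.53, 1.86 and 2.03 CPM in Aβ plus acetate 1, 2 and 3, against 1.74, 1.44 and 1.15 CPM in control 1, 2 and 3, and the groups did not overlap (log2 0.42, SE 0.13, adjusted p = 0.999). Acetate alone stood 0.54 above control for Ppargc1b. Acaa2 and Acadl, enzymes of beta-oxidation, stood at 0.18 (SE 0.11) and 0.16 (SE 0.09), and at 0.11 and 0.036 without control 3. Acadl stood at 0.01 in set 1, 0.34 in set 2 and 0.25 without Aβ plus acetate 1. Without control 3 the list median was 0.03, with 20 of 28 higher, and without the set as a term it was -0.0060.

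Among genes of fatty acid uptake and lipid droplets, 10 of 16 were higher, with a median of 0.04 that was -0.0063 without control 3. Plin3, a droplet coat protein, stood at 0.20 (SE 0.09) and Acsl6, which activates long fatty acids, at 0.27 (SE 0.11), both apart and higher within both sets, and at 0.11 and 0.15 without control 3. Cd36, which takes up fatty acids and also binds Aβ, had 29.1, 29.3 and 25.8 CPM in Aβ plus acetate 1, 2 and 3, against 31.4, 43.6 and 36.6 CPM in control 1, 2 and 3, with no overlap (log2 -0.45, SE 0.17, adjusted p = 0.999). For Cd36, acetate alone stood at -0.72 from control, and Aβ plus acetate stood 0.27 above acetate. Apoe, the main lipid carrier that astrocytes secrete, had 4045, 4610.1 and 4639.6 CPM in Aβ plus acetate 1, 2 and 3, against 4079.6, 2898 and 4495 CPM in control 1, 2 and 3, and the groups overlapped (log2 0.12, SE 0.14). Apoe stood at 0.0012 without control 2, 0.020 without Aβ plus acetate 1 and 0.23 without control 1. Of 17 genes of fatty acid and glycerolipid synthesis, 10 were higher, with a median of 0.03 (-0.0059 without control 3). The list of cholesterol efflux and LXR targets had 6 of 12 members higher, with a median of -0.0036.

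Genes that handle acetate differed little. Of 13 genes of acetate and acetyl-CoA, 7 were higher and 0 passed, with a median of 0.03 that was -0.05 without Aβ plus acetate 1. Acss1, the mitochondrial enzyme that makes acetyl-CoA from acetate, had 57.6, 56.3 and 59.9 CPM in Aβ plus acetate 1, 2 and 3, against 61.1, 61.0 and 64.2 CPM in control 1, 2 and 3, with no overlap of the groups (log2 -0.11, SE 0.08, adjusted p = 0.999). Its partner in cytosol and nucleus, Acss2, had 39.1, 27.2 and 26.7 CPM in Aβ plus acetate 1, 2 and 3, against 42.6, 38.9 and 27.1 CPM in control 1, 2 and 3 (log2 -0.05, SE 0.10). Acly, which makes acetyl-CoA from citrate, stood at -0.12 (SE 0.07), and Slc16a1, a carrier of lactate, ketones and acetate, at 0.03 (SE 0.09). Acss2 and Slc16a1 overlapped between the groups within at least 1 set.

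Central carbon metabolism was close to the background. Of 25 genes of the TCA cycle and pyruvate entry, 10 were higher and 4 were apart and lower, with a median of -0.01. Of 28 nuclear genes of oxidative phosphorylation, 16 were higher, with a median of 0.01 (-0.04 without control 3). Of 19 glycolysis genes, 12 were higher, with a median of 0.09 that was -0.02 in set 1 and 0.20 in set 2, and -0.06 without control 3. The neuronal-type enolase Eno2 stood at 0.30 (SE 0.12), and hexokinases Hk1 and Hk2 at 0.23 (SE 0.11) and -0.16 (SE 0.08). Without control 3, Eno2 stood at 0.20 and Hk1 at 0.13. Txnip, which rises with glucose in many cells, had 30.4, 8.65 and 9.43 CPM in Aβ plus acetate 1, 2 and 3, against 31.7, 34.8 and 7.27 CPM in control 1, 2 and 3 (log2 0.06, SE 0.15), and 3 of the 5 glucose-sensing genes were higher.

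Chaperones of the ER were lower by small amounts. All 22 genes of the ER chaperone and unfolded protein response list had a fitted difference below 0 (51.8% of all genes did) and 0 passed. The median was -0.10 (-0.06 in set 1 and -0.15 in set 2), and 9 were apart and lower within both sets (40.9%). In set 1 alone, 15 were lower and 7 higher, and in set 2 alone, 21 were lower and 1 higher. Syvn1, a ubiquitin ligase that clears misfolded proteins, had 39.9, 241 and 245 CPM in Aβ plus acetate 1, 2 and 3, against 52.6, 48.1 and 282 CPM in control 1, 2 and 3 (log2 -0.25, SE 0.08, adjusted p = 0.999, and -0.16 without Aβ plus acetate 1). Hyou1, a large ER chaperone, had 139, 1258 and 1184 CPM in Aβ plus acetate 1, 2 and 3, against 161, 151 and 1413 CPM in control 1, 2 and 3 (log2 -0.20, SE 0.11). Set 2 was far above set 1 for both, and the fit without the set as a term gave a list median of 0.70 with 21 of 22 higher, so the direction of this list depends on the set term.

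Acetate alone had a median of -0.13 from control for the ER list, and Aβ plus acetate a median of 0.03 from acetate. Without Aβ plus acetate 1 the median was -0.16, and in the leave-outs up to 5 of the 22 stood above 0. The amino acid response (ATF4) list had 11 of 22 members higher, with a median of 0.01, against 0.95 with 22 of 22 higher when the set was left out of the fit. Nupr1 and Gdf15, stress genes of that list, stood at 0.25 each (SE 0.13 and 0.14), and at 0.12 and 0.083 without Aβ plus acetate 1.

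**Figure D5:**
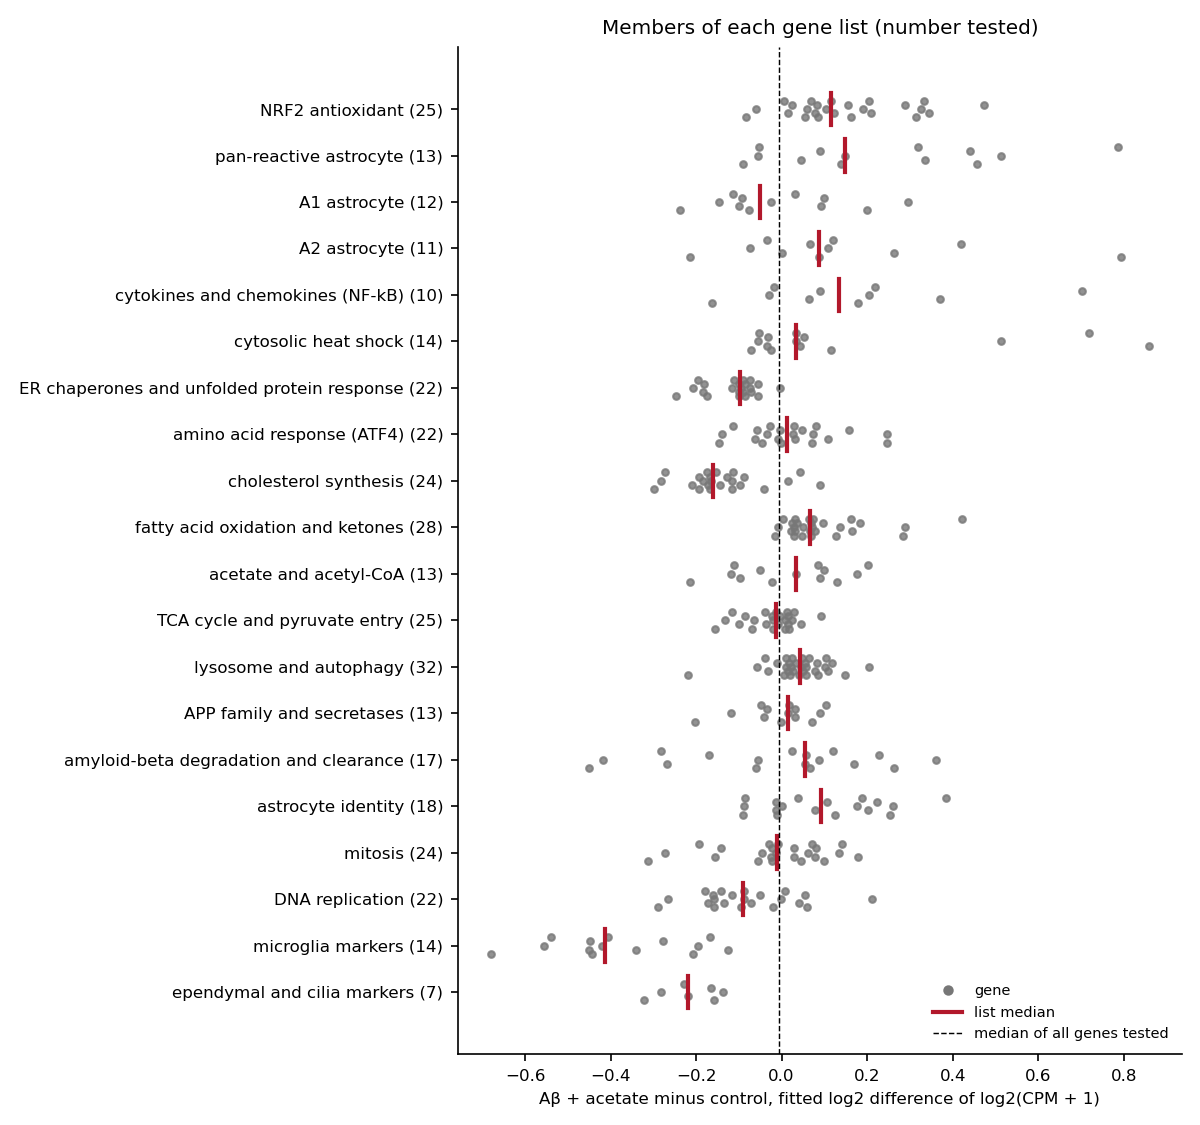
Fitted log2 difference of each tested gene (dots; horizontal axis, Aβ plus acetate minus control on log2(CPM + 1)) in 20 gene lists, with the list median (bar) and the median of all genes (dashed line, -0.0049). The antioxidant and fatty acid oxidation lists lie mostly to the right, and the ER chaperone, cholesterol synthesis, microglia and ependymal lists to the left.

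Cytosolic heat shock genes as a list stood at a median of 0.03 with 8 of 14 higher, and at 0.0010 without Aβ plus acetate 1. The Hsp70 genes of the list differed mainly in set 2. Hspa1a, an inducible Hsp70, had 16.7, 41.5 and 26.7 CPM in Aβ plus acetate 1, 2 and 3, against 16.3, 14.9 and 10.9 CPM in control 1, 2 and 3 (log2 0.86, SE 0.31, adjusted p = 0.999). The difference was 0.09 in set 1, 1.53 in set 2, 0.48 without control 3 and 1.44 without Aβ plus acetate 1. Hspa1b, a nearly identical copy whose reads cannot be cleanly separated from it, stood at 0.72 (SE 0.29), with 0.04 in set 1 and 1.41 in set 2. Without control 3 Hspa1b stood at 0.25, without Aβ plus acetate 2 at 0.45 and without Aβ plus acetate 1 at 1.17. Hspb1, a small heat shock protein, stood at 0.51 (SE 0.21), with 0.19 in set 1, 0.98 in set 2 and 0.10 without control 3.

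Lysosome and autophagy genes were higher by small amounts. Of 32 tested, 27 were higher and 0 passed, with a median of 0.04 (0.06 in set 1 and 0.07 in set 2), and 10 were apart and higher (31.3%). Sqstm1, an autophagy receptor and also an NRF2 gene, had 615, 1317 and 1220.0 CPM in Aβ plus acetate 1, 2 and 3, against 551, 498 and 1082 CPM in control 1, 2 and 3 (log2 0.20, SE 0.09, adjusted p = 0.999). Mcoln1, a calcium channel of the lysosome, stood at 0.11 (SE 0.07) and was apart and higher within both sets. Without control 3 the median was 0.01 with 18 of 32 higher.

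Genes of amyloid processing and clearance did not share a direction. App, the precursor of Aβ, had 1297, 1132 and 1037 CPM in Aβ plus acetate 1, 2 and 3, against 1270.3, 1297 and 1042 CPM in control 1, 2 and 3, and the groups overlapped (log2 0.03, SE 0.08). Of 13 genes of the APP family and the secretases, 7 were higher, with a median of 0.01. Adam9, a protease with alpha-secretase activity, stood at -0.20 (SE 0.09).

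Of 17 clearance genes, 10 were higher and 7 lower, with 4 apart and higher and 5 apart and lower within both sets, and 0 passed. The median was 0.06, and -0.03 without control 3. Mme, or neprilysin, a protease that degrades Aβ, had 105, 54.7 and 54.0 CPM in Aβ plus acetate 1, 2 and 3, against 109, 151 and 86.5 CPM in control 1, 2 and 3 (log2 -0.42, SE 0.15, adjusted p = 0.999). Ece1, another protease that degrades Aβ, had 39.4, 36.8 and 37.3 CPM in Aβ plus acetate 1, 2 and 3, against 33.9, 34.1 and 24.5 CPM in control 1, 2 and 3, with no overlap of the groups (log2 0.36, SE 0.10, adjusted p = 0.999). The membrane metalloprotease Mmp14 stood at 0.23 (SE 0.10). Without control 3, Mme stood at -0.18, Ece1 at 0.17 and Mmp14 at 0.05. Mme thus stood lower and Ece1 higher in both sets, and acetate alone stood at -0.06 and 0.15 from control for them.

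Genes that define astrocytes were present at high levels. Of 18 identity genes tested, 12 were higher and 0 passed, with a median of 0.09 (0.07 in set 1 and 0.12 in set 2), and 6 were apart and higher (33.3%). Their summed level was 8929 to 9590.6 CPM in Aβ plus acetate libraries and 8599.7 to 9016 CPM in control libraries, with Gjb6 under 1 CPM in every library. Ndrg2, the glutamate transporter Slc1a2 and the transcription factor Sox9 stood at 0.26 (SE 0.10), 0.20 (SE 0.09) and 0.18 (SE 0.09), each apart and higher. Without control 3, Ndrg2 stood at 0.16. Aqp4, the water channel of astrocyte endfeet, had 740.0, 531 and 657 CPM in Aβ plus acetate 1, 2 and 3, against 646, 750.3 and 611 CPM in control 1, 2 and 3, and overlapped (log2 0.04, SE 0.13).

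Maob, which breaks down monoamines and putrescine products in reactive astrocytes, stood at 0.36 (SE 0.13) with 6.36, 10.5 and 13.9 CPM in Aβ plus acetate 1, 2 and 3, against 4.65, 5.64 and 8.47 CPM in control 1, 2 and 3. Acetate alone stood 0.34 above control for Maob. Of 15 synapse-acting secreted proteins, 5 were higher and 4 apart and lower, with a median of -0.09 that was 0.0055 without control 3. Gpc6, a glypican that promotes synapses, stood at -0.18 (SE 0.10), and at -0.063 without control 3.

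Mitosis genes had medians of opposite sign in the 2 sets. Of 24 mitosis genes, 11 were higher, with a median of -0.01 that was -0.26 in set 1 (23 of 24 lower) and 0.25 in set 2 (21 of 24 higher). It was -0.16 without control 3 and 0.16 without Aβ plus acetate 1. Whether the list differed between the sets was not tested. Kif11, a spindle motor, had 25.4, 24.1 and 25.0 CPM in Aβ plus acetate 1, 2 and 3, against 26.8, 35.3 and 33.2 CPM in control 1, 2 and 3, with no overlap (log2 -0.31, SE 0.12, adjusted p = 0.999, and -0.20 without control 3). Nek2, a kinase of the centrosome, stood at -0.27 (SE 0.09). Of 22 DNA replication genes, 17 were lower and 7 apart and lower within both sets (31.8%), with a median of -0.09 (-0.10 in set 1, -0.05 in set 2 and -0.14 without control 3). Pcna, the sliding clamp, stood at -0.18 (SE 0.07), and Ccne2, a cyclin of the start of S phase, at -0.29 (SE 0.13).

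Markers of other cells in the cultures also differed, and their part in the results above was not tested. In bulk RNA, fewer cells of a type and less RNA per cell cannot be told apart. All 14 microglia markers tested had a fitted difference below 0, with a median of -0.41 (-0.17 in set 1 and -0.30 in set 2), 5 apart and lower, and 0 passing. Within set 1, 10 were lower and 4 higher, and within set 2, 13 were lower and 1 higher. With the 6 libraries of the comparison alone, the median was -0.26 with 13 lower. Tmem119, a microglia marker, had 3.30, 0.421 and 0.656 CPM in Aβ plus acetate 1, 2 and 3, against 4.19, 3.34 and 1.46 CPM in control 1, 2 and 3 (log2 -0.54, SE 0.25, and -0.98 without Aβ plus acetate 1). The 15 microglia genes summed to 163, 309.6 and 385 CPM in Aβ plus acetate 1, 2 and 3, against 208, 164 and 397 CPM in control 1, 2 and 3. The median without Aβ plus acetate 1 was -0.72 and that without Aβ plus acetate 2 was -0.24, while the fit without the set as a term gave 0.13.

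The 7 ependymal and cilia markers all had a fitted difference below 0 (median -0.22, -0.04 without control 3, 0.09 without the set as a term). In set 1 alone, 4 were lower and 3 higher, and in set 2 alone all 7 were lower. These markers summed to 380.5 to 648 CPM with Aβ plus acetate and 362 to 657 CPM in controls. Fibroblast and meningeal markers summed to 1136 to 2624 CPM with Aβ plus acetate and 955 to 2526 CPM in controls, mural and smooth muscle markers to 579 to 3555 CPM and 569.7 to 3842 CPM. Both were high in set 1 in either group. Oligodendrocyte lineage markers summed to 289 to 822 CPM with Aβ plus acetate and 241 to 1009 CPM in controls, neuron markers to 475 to 549 CPM and 522 to 612 CPM, and endothelial markers to 35.6 to 38.3 CPM and 38.2 to 52.1 CPM. Under 1 CPM in every library were 3 of 5 endothelial markers (Pecam1, Cdh5 and Tek) and 2 of 9 neuron markers (Slc17a7 and Nefl). The same held for 1 of 11 oligodendrocyte lineage markers (Mog) and 2 of 10 fibroblast and meningeal markers (Dpt and Slc6a13). The other measured members of these lists reached 1 CPM in at least 1 library. The 1 red blood cell marker listed, Alas2, was at most 0.123 CPM.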

How the data were processed

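Poly(A) RNA of 9 astrocyte cultures, 3 per group, had been sequenced, and the 6 libraries of the Aβ plus acetate and control groups are reported. The authors deposited gene-level CPM values, which scale a library's reads to a common total, per the file headers. STAR 2.7.3a, Partek, FastQC, GRCm39 and mm10 are listed in the submitters' processing notes without their roles, and the deposited coordinates match mm10. Deposited Z-score columns were not used. Whole reads could not be recovered from the CPM values, so no count test was run.

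Values were analysed as log2(CPM + 1) with limma 3.58.1 in R 4.3.3. Tested were the 14058 of 18061 genes that reached 1 CPM in 3 or more libraries, with group and library set as terms over all 9 libraries, a trended and robust prior, and Benjamini-Hochberg adjustment at 0.05. Fits were checked on simulated data, with shifts larger than most differences reported here, so the check does not cover differences of this size. The p-values set each difference against the residual spread between all 9 cultures, moderated by the prior. Named are the 8 genes per direction with the smallest p among those of the same sign in both sets, since fewer than 5 passed, up to 4 members of each list with the smallest p, and 8 fixed genes of acetate use, amyloid and astrocyte identity. A few genes that this rule names are not reported here. The members and the 44 lists were chosen with earlier results of these data known. Deviations of same-numbered titles from their group means correlated at 0.86, -0.81 and 0.93 (Pearson) for titles 1, 2 and 3. These values carry the set, since Aβ plus acetate 2 and control 2 lie in different sets. With the set removed they were -0.23, 0.27 and -0.15. Whether the titles pair the samples is therefore not decided, and the main fit used no pairing. The alternatives were other pseudocounts, filters, scalings, priors and weights, fits without the set, with a replicate block, with 6 libraries or within a set, and each library left out.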

Additional observations from a re-analysis of the deposited data

How the results depend on the processing

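The count of genes passing an adjusted p of 0.05 in limma was 0 under each of 19 alternatives, and so was the count of genes whose difference varied with the set under the alternatives run for it. The number at an unadjusted p under 0.05 was 505 as reported, 61 without the set as a term, 1120 with array quality weights, 297 without control 3 and 1275 without control 1, and the smallest adjusted p over the alternatives was 0.116. A replicate block by title number, with the set, gave 0 calls and 492 genes at an unadjusted p under 0.05, and a replicate block by the number in the library name gave 0 calls and 1145 genes. The library-name numbers correlated at 0.89 in both pairs and carry the set, and at -0.15 and -0.30 with the set removed. Most named genes were picked for small p in these same libraries. A kept sign is therefore partly built in, and its share over all genes was not counted. Other scalings, filters, pseudocounts and priors turned the sign of 0 of the 92 named genes, and 84 of the 92 kept their sign in every leave-out. Of the 8 others, leave-outs spanned -0.030 to 0.12 for Aqp4, -0.17 to 0.027 for Nat8f1, -0.00793 to 0.025 for Nop9, -0.21 to 0.014 for Ripk3, -0.0088 to 0.11 for Slc16a1, -0.055 to 0.052 for Tinf2, -0.30 to 0.0030 for Txn1 and -0.11 to 0.16 for Txnip. Without the set as a term, 10 genes had the other sign, with Acaa2 at -0.039, App -0.057, Aqp4 -0.067, Hk2 0.22, Hspb1 -0.58, Hyou1 0.86, Mmp14 -0.14, Pold2 0.14, Syvn1 0.57 and Txnip -0.54. The title block gave Apoe -0.042, Gmpr2 0.0042, Nop9 -0.00483 and Tinf2 -0.048, and the library-name block Acss2 0.035, Aqp4 -0.0070, Nat8f1 0.040, Ripk3 0.011 and Slc16a1 -0.0011. Array weights gave Nat8f1 0.027, and the 6 libraries alone and the fit averaged over the sets each gave Tinf2 -0.015. The cause of these was not tested. Many list medians moved when the set was left out of the fit, as in pan-reactive genes (0.34) and astrocyte identity (0.05). Leave-outs took some medians near 0 to either sign, with -0.09 to 0.05 for A1 genes, -0.04 to 0.05 for the ATF4 list, -0.06 to 0.05 for ribosomal proteins and -0.09 to 0.02 for the extracellular matrix. Depth limits genes near 1 CPM, such as Adamts18 and Avpr1a.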

Other observations

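Several other gene groups were measured, and 0 of their members passed the test in limma. Of 14 matrix proteases and inhibitors, 10 were higher, with a median log2 difference of 0.09 (-0.05 in set 1, 0.28 in set 2, and -0.0086 without control 3), against -0.0049 for all genes. Mmp11, a matrix metalloprotease, had 43.6, 76.5 and 81.3 CPM in Aβ plus acetate 1, 2 and 3, against 37.3, 39.0 and 50.8 CPM in control 1, 2 and 3 (log2 0.37, SE 0.11, adjusted p = 0.999, and 0.16 without control 3). Of 16 genes of carbonic anhydrases and acid-base transport, 10 were higher, with a median of 0.05 (-0.0015 without control 3). Car14, a membrane carbonic anhydrase, had 2.76, 3.04 and 2.75 CPM in Aβ plus acetate 1, 2 and 3, against 2.31, 1.81 and 0.803 CPM in control 1, 2 and 3, with no overlap of the groups (log2 0.66, SE 0.19, adjusted p = 0.999, and 0.30 without control 3). Acetate alone stood 0.74 above control for Car14.

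Of 25 genes of histone acetylation, 16 were higher, with a median of 0.03. Hdac11, a deacetylase, had 28.4, 24.8 and 26.5 CPM in Aβ plus acetate 1, 2 and 3, against 25.0, 19.2 and 19.0 CPM in control 1, 2 and 3 (log2 0.34, SE 0.13, adjusted p = 0.999, and 0.22 without control 3). Of 16 BMP and Id genes, 6 were higher, with a median of -0.02. Bmp3, an antagonist within the BMP family, had 4.57, 3.28 and 3.41 CPM in Aβ plus acetate 1, 2 and 3, against 5.38, 6.23 and 5.91 CPM in control 1, 2 and 3, with no overlap (log2 -0.46, SE 0.14, adjusted p = 0.999, and -0.29 without control 3). Of 17 extracellular matrix genes, 6 were higher in the fit, with a median of -0.0056. The median was 0.08 in set 1 (13 of 17 higher) and 0.03 in set 2 (10 of 17 higher). The 6 libraries of the comparison alone gave 0.04 with 11 of 17 higher, and the fit without the set as a term gave -0.89. Of 39 ribosomal protein genes, 25 were higher with a median of 0.01, and 33 were higher in set 1 and 18 in set 2. Of 9 genes of the insulin-like growth factor system, 3 were higher with a median of -0.12, and 0.05 without Aβ plus acetate 1. Of 20 immediate early genes, 11 were higher with a median of 0.02, and -0.06 without control 3.

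The Nat8 genes, N-acetyltransferases in a row on chromosome 6 from 85760631 to 85915633, were chosen for mention after their values were seen. Nat8f3, Nat8f5, Nat8 and Nat8f4 stood at 0.36, 0.34, 0.48 and 0.27, each apart and higher within both sets, and Nat8f1 at -0.05. Nat8f3, Nat8f5 and Nat8 were under 1 CPM in every control library, so they passed the filter only through libraries given acetate. Their standing above control is thus partly built in. Nat8 had 1.02, 1.39 and 1.16 CPM in Aβ plus acetate 1, 2 and 3, against 0.662, 0.451 and 0.436 CPM in control 1, 2 and 3, and its difference was 1.00 with a pseudocount of 0.1 and 0.15 with 5. Without control 3, Nat8f4 stood at 0.08. The sequences of these related genes were not compared here, and reads may be split among them. Acetate alone stood 0.55 above control for Nat8.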
